A study of Mus musculus with 21 samples.

Results

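The 50 genes described here encode homeobox transcription factors, proteins that bind DNA through a homeodomain. They were chosen by name, from a list of gene symbols whose rule used no expression value but which was drawn up with earlier results of these data known, and each has 1 row among the 52550 genes of the deposited count table. RNA-Seq libraries of 7 groups of mouse cells on a C57BL/6 strain were compared, with 3 replicates in each group and 21 libraries in all. Spiral ganglion neurons (SGNs), the neurons that carry sound signals from the cochlea to the brainstem, were collected at 5 ages, embryonic day E15.5 and postnatal days P1, P8, P14 and P30, from animals carrying ShhCre and a floxed tdTomato reporter at the Rosa26 locus. Hair cells (HCs) at P12 came from animals with Atoh1-CreER and the same reporter, given tamoxifen after birth, and by their labels came from cochlear and vestibular organs together. Glial cells at P8 came from animals with vGlut3-iCreER and the same reporter, also given tamoxifen after birth, and from the dissected SGN area. Every group therefore carried a Cre line and tdTomato, and no library held cells without them. The labels give between 69 and 195 manually picked tdTomato-positive cells for each SGN library, between 86 and 125 for each glial library and about 1200 for each HC library. The paper's methods describe fluorescence-activated sorting for HCs instead, in which case collection method and cell type cannot be told apart. Cell type and Cre line cannot be told apart, and glial cells and HCs were each collected at a single age. The labels do not say that replicates came from separate animals, so p-values measure the spread between these libraries, which may in part be technical.

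Homeobox factors are sorted into classes by their homeodomain and by the domains beside it. LIM, POU and CUT factors carry a further domain of that name, TALE factors carry a few extra residues within the homeodomain, and zinc finger (ZF) factors carry zinc fingers as well. In neurons they are best known as regulators that fix and maintain cell identity, and in the ear they take part in forming the otic placode, the sensory ganglia and the HCs. Their mRNAs are often kept at moderate levels, and combinations of factors, not single factors, usually mark a cell type.

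Libraries held between 10368240 and 37287489 counts on genes, and the floor used for a count of 0, which is 3 counts, equaled between 0.0805 and 0.289 CPM (counts scaled to a fixed library total). The share of counts on mitochondrial genes lay between 9.54% and 24.2%. The 4 SGN markers summed to between 101 and 659 TPM (counts per length, scaled to a fixed sum) in SGN libraries and to no more than 10.1 in HC libraries. The 4 HC markers summed to between 1288 and 1441 TPM in HCs, and the 3 glial markers to between 496 and 629 TPM in glial cells, so each label matched its markers. Some libraries also held RNA of other cell types. Glial replicate 1 had 63.5 TPM over the SGN markers, where the other glial libraries had 6.57 and 7.06. The 8 Schwann cell myelin genes summed to between 825 and 1516 TPM in P8 SGNs, against between 88.9 and 225 at P1 and between 7454 and 10137 in glial cells. P14 SGN replicate 1 had 107 TPM over the HC markers and 113 over the 6 markers of supporting epithelium. It also had 72.7 TPM over the glial markers, 992 over the myelin genes and 73.9 over 8 mesenchyme genes. Among SGN libraries the mesenchyme genes were highest in P1 replicate 1 (158 TPM) and P8 replicate 1 (156). P1 replicate 1 also had 73.4 TPM over 4 endothelial genes, and P8 replicate 1 had 68.5 over the supporting epithelium markers. E15.5 replicate 1 had 178 TPM over 4 blood genes. HC libraries held between 807 and 897 TPM of those supporting epithelium markers and between 102 and 109 TPM of the mesenchyme genes. In glial libraries the mesenchyme genes summed to between 296 and 430 TPM. In such pooled cells, fewer cells of a type and less RNA per cell cannot be told apart.

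Levels of one gene are compared between libraries as normalized CPM, CPM on library sizes scaled with TMM factors, which is the scale of the tests. Levels of different genes are compared as TPM, which divides by gene length. The scales differ between groups, since relative to the SGN mean a gene's TPM stood 1.29 log2 units above its normalized CPM in HCs and -0.37 units from it in glial cells. Genes are therefore ordered by TPM only within a group. Marker sums and counts of members over a TPM limit are also in TPM, and between groups they hold this shift.

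Promoter sequence is shown for 4 members picked by hand to stand for some of the patterns described below. Shox2 was high in SGNs at every age, Lhx3 was high in HCs, Six2 was abundant in SGNs and HCs, and Zfhx2 fell with age. No member highest in glial cells is among them. Each line is the 250 bases before the RefSeq start on GRCm38.p6, 5′ to 3′ on the strand of the gene, with matches to the motifs below in capitals.
Shox2 (chr3:66981772-66982021, minus strand): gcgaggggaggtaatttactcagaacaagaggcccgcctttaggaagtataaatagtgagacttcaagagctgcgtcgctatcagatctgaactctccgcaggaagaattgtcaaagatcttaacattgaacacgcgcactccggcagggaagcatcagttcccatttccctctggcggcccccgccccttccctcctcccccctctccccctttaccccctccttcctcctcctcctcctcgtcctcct
Lhx3 (chr2:26206576-26206825, minus strand): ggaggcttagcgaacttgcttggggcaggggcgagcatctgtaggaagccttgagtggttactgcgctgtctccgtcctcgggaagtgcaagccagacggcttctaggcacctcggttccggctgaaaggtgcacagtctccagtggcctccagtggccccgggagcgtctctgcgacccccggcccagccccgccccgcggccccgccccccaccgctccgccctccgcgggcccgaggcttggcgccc
Six2 (chr17:85688255-85688504, minus strand): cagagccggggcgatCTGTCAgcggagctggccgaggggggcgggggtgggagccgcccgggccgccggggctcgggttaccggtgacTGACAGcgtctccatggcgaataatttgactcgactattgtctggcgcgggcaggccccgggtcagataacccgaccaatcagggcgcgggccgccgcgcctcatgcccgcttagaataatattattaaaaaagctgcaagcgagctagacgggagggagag
Zfhx2 (chr14:55092049-55092298, minus strand): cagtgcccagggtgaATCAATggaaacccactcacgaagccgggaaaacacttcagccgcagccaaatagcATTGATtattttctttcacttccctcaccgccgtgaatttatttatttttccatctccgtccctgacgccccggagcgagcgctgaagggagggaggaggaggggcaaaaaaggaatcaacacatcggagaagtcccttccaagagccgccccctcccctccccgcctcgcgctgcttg
The 5 motifs searched on both strands were the homeodomain core TAATTA, the POU octamer ATGCAAAT, the MEIS core TGACAG, the ZEB E-box CACCTG and the ONECUT core ATTGAT. Six2 held 2 matches to TGACAG, at -235 and -162 from the start, and Zfhx2 held 2 matches to ATTGAT, at -235 and -179. The windows of Shox2 and Lhx3 held none of the 5. A window was found for 39 of the 50 members. For the 9 members with several windows, the one nearest to the start of the principal GENCODE transcript was used. The distance to that start was 0 bases for Shox2 and Lhx3, 20 for Six2 and 276 for Zfhx2. It was 1464 for Cux1, 13619 for Pou6f1 and 772000 for Zfhx3, so some windows may not be the main promoter. Of these 39, 1 held TAATTA, none ATGCAAAT, 3 TGACAG, 4 CACCTG and 1 ATTGAT, where 4.85%, 1.60%, 15.9%, 17.2% and 6.73% of all 32817 windows did. The median GC content of the members' windows was 64.8%, against 52.4% over all windows. A match describes letters in a window and is not a site of binding.

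Of the 50 members, 25 exceeded 1 TPM in every one of the 15 SGN libraries, and the number per age lay between 26 and 28. In HCs 34 members and in glial cells 17 members exceeded 1 TPM in all 3 libraries, but with the shift between scales this limit stands for a lower normalized CPM in HCs and a higher one in glial cells, so these numbers are not compared. All 21 libraries exceeded 1 TPM for 13 members. Six2, Cux1 and Zeb1 were among these 13, as were Pbx2, Pbx3, Irx2 and Meis3 of the TALE class. At the other end, Lhx2, Msx1 and Msx2, factors of forebrain and craniofacial development, stayed under 1 TPM in every library.

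The members with the highest TPM differed between the cell types. Over the SGN libraries they were Isl1 (chromosome 13, 116298281 to 116309689, minus strand), a LIM factor of sensory and motor neurons, Six2 (chromosome 17, 85684277 to 85688274, minus strand), a SINE factor known from kidney progenitors, and Prox1 (chromosome 1, 190118035 to 190170714, minus strand), a prospero factor known from lymphatic vessels and neural precursors. At P1 their levels were 116 TPM ± 26 for Isl1, 77.9 ± 31 for Six2 and 124 ± 6.4 for Prox1 (SD, n = 3). In HCs the leading members were Six2 at 271 ± 26 TPM, Irx2 at 256 ± 18 and Prox1 at 101 ± 2.2. In glial cells they were Zeb2 at 79.4 ± 13 TPM, Cux1 at 55.3 ± 6.2 and Pou3f1 at 26.4 ± 9.3. The 5 leading members held 51.7% of the summed TPM of all members in P1 SGNs, 66.7% in HCs and 60.7% in glial cells.

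**Figure D1:**
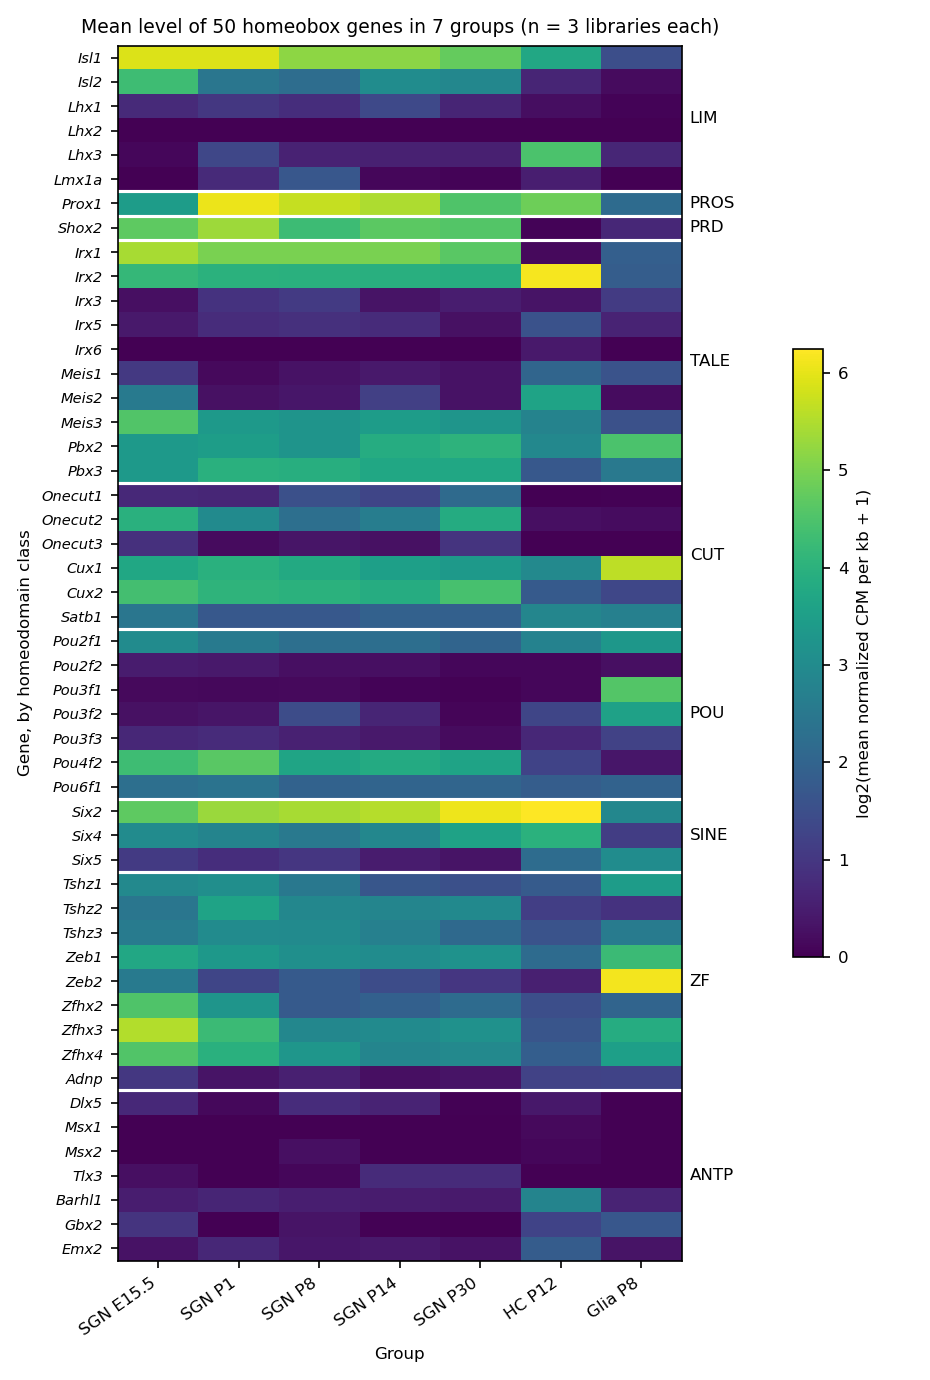
Mean level of each of the 50 homeobox genes (rows, by homeodomain class) in the 7 groups (columns, n = 3 libraries each). Color is log2 of the mean normalized CPM per kilobase of gene length plus 1. Six2 and Prox1 are bright in SGNs and HCs, Irx2 and Lhx3 in HCs, and Zeb2, Cux1 and Pou3f1 in glial cells, while Lhx2, Irx6, Msx1 and Msx2 are dark throughout.

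The first comparisons ask how the homeobox genes of SGNs changed with age. Of the 50 members, 39 passed the filter on low counts, which asked for more than 1 CPM in each library of some age. Dlx5, Gbx2, Irx3, Irx5, Irx6, Lhx2, Lmx1a, Msx1, Msx2, Pou3f1 and Tlx3 did not and were not tested. Lmx1a, a factor of roof plate and inner ear development, reached 23.0 normalized CPM in P8 replicate 1 and 0 in the other P8 libraries. At the other SGN ages it also had counts in replicate 1 only. It stood there at 0.133 normalized CPM at E15.5, 6.86 at P1, 0.856 at P14 and 0.399 at P30. P8 replicate 1 held 68.5 TPM of supporting epithelium markers and 156 TPM of mesenchyme genes, and P1 replicate 1 held 21.8 and 158. P14 replicate 1 held 113 and 73.9. HC libraries, with between 807 and 897 TPM of the supporting epithelium markers, had 0.354, 2.61 and 1.48 normalized CPM of Lmx1a. Glial libraries, with between 296 and 430 TPM of the mesenchyme genes, had 0. The part of either set in the Lmx1a level was not tested. A member was called changed at more than a 2-fold difference with a Benjamini-Hochberg adjusted p under 0.05 in limma.

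From E15.5 to P1 Prox1 and the teashirt factor Tshz2 rose, and Isl2, Zeb2, Zfhx2, Zfhx3, Meis3 and Onecut2 fell. These are 2 and 6 of the 39 members tested, or 5.13% and 15.4%, where 5.08% and 3.18% of all 15113 genes rose and fell. The median log2 fold change was -0.18 over the members and 0.07 over all genes. In the ZF class 1 of 9 members rose and 3 fell, and in the POU and SINE classes none of 6 and none of 3 was called.

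Prox1 stood at 96.8, 48.2 and 107 normalized CPM in the E15.5 libraries and at 554, 660 and 429 in the P1 libraries. All P1 libraries lay above all E15.5 libraries, and the log2 fold change was 2.78 (SE 0.28, limma adjusted p = 2.39e-05). Tshz2, a zinc finger factor, stood at 44.5, 27.8 and 32.8 normalized CPM at E15.5 and at 85.1, 101 and 76.0 at P1, a log2 fold change of 1.36 (SE 0.30, limma adjusted p = 0.0096). The groups did not overlap for Tshz2, but the call was lost with sample quality weights (adjusted p = 0.0705). Tshz2 shares 5076 exonic bases with Gm26883 on the opposite strand. Whether the counting used strand is not given in the sources used here, so reads of that pair of genes cannot be told apart.

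Isl2, the close relative of Isl1 known from motor and sensory neurons, stood at 49.3, 31.3 and 41.9 normalized CPM at E15.5 and at 12.1, 5.98 and 11.5 at P1. The log2 fold change was -2.04 (SE 0.37, limma adjusted p = 0.00284), whereas Isl1 stood at 236 ± 38 and 234 ± 4.6 normalized CPM at these ages (SD, n = 3), with a log2 fold change of 0.00 (SE 0.22). Isl2 was called and Isl1 was not, and the difference between these genes was not tested. Zeb2, a repressor known from neural crest and from myelinating Schwann cells, stood at 123, 51.9 and 123 normalized CPM at E15.5 and at 41.0, 17.2 and 29.5 at P1. Its log2 fold change was -1.68 (SE 0.38, limma adjusted p = 0.0105) and the groups did not overlap. Without P1 replicate 2 it was -1.39 and no longer called (limma adjusted p = 0.0529). The 3 glial markers summed to between 7.06 and 28.6 TPM at E15.5 and to between 2.87 and 7.39 at P1, with overlap. The 8 Schwann cell myelin genes summed to between 94.2 and 231 TPM at E15.5 and to between 88.9 and 225 at P1. The part of either set in the Zeb2 result was not tested.

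The large ZF factors Zfhx2 and Zfhx3 fell at 2 successive steps. Zfhx2, known from sensory neurons and pain, stood at 493, 333 and 377 normalized CPM at E15.5, at 187, 123 and 154 at P1 and at 62.7, 34.6 and 34.6 at P8. No library of a later age reached the level of an earlier one over these 3 ages. The log2 fold change was -1.35 (SE 0.20, limma adjusted p = 7.47e-04) from E15.5 to P1 and -1.85 (SE 0.25, limma adjusted p = 1.68e-04) from P1 to P8. Zfhx2 shares 3255 exonic bases with its antisense gene Zfhx2os, and without strand the reads of the pair cannot be told apart.

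Zfhx3, known from the circadian clock of the hypothalamus, stood at 1114, 740 and 967 normalized CPM at E15.5, at 489, 365 and 291 at P1 and at 194, 108 and 101 at P8. These groups did not overlap either. The log2 fold change was -1.28 (SE 0.31, limma adjusted p = 0.014) from E15.5 to P1 and -1.55 (SE 0.36, limma adjusted p = 0.0104) from P1 to P8. The first call was lost without E15.5 replicate 1, E15.5 replicate 3 or P1 replicate 3, with adjusted p between 0.0503 and 0.0534, with edgeR (adjusted p = 0.0536) and with sample quality weights (0.0548). The second was lost without P1 replicate 1 (adjusted p = 0.0644) or P8 replicate 2 (0.0545). Zfhx4, the other gene of this family, had a log2 fold change of -0.60 (SE 0.24) and then of -0.72 (SE 0.25) over these steps and was called at neither.

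Meis3, a TALE factor and partner of HOX proteins, and Onecut2, a CUT factor known from liver and motor neurons, were the remaining members that fell at the first step. Meis3 had a log2 fold change of -1.28 (SE 0.26, limma adjusted p = 0.0056). Onecut2 stood at 231, 145 and 214 normalized CPM at E15.5 and at 94.9, 90.3 and 90.8 at P1, a log2 fold change of -1.06 (SE 0.19, limma adjusted p = 0.00256). The call was lost without E15.5 replicate 1 (log2 fold change -0.93) or E15.5 replicate 3 (-0.97).

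From P1 to P8 the POU factor Pou3f2 rose, and Zfhx2, Zfhx3, Shox2 and Pou4f2 fell. These are 2.56% and 10.3% of the 39 members tested, where 4.29% and 3.15% of all genes rose and fell. The median log2 fold change was -0.30 over the members and -0.01 over all genes.

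Pou3f2, also known as Brn2 and active in Schwann cells as well as in neurons, stood at 0.971, 2.93 and 0.849 normalized CPM at P1 and at 13.1, 7.53 and 8.62 at P8. The groups did not overlap, and the log2 fold change was 2.84 (SE 0.65, limma adjusted p = 0.0094). It was lost without P1 replicate 1 (adjusted p = 0.0676) and with edgeR (adjusted p = 0.0825). Glial cells of the same age held 91.3, 37.4 and 55.1 normalized CPM of Pou3f2. The Schwann cell myelin genes were also higher at P8 than at P1, as given above, with no overlap of the summed levels, and their part in the Pou3f2 result was not tested.

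Shox2, a factor of the paired (PRD) class known from the cardiac pacemaker, limbs and touch neurons, stood at 102, 153 and 132 normalized CPM at P1 and at 55.5, 48.7 and 80.3 at P8. The log2 fold change was -1.08 (SE 0.29, limma adjusted p = 0.0235). This call did not hold without P1 replicate 2, P1 replicate 3, P8 replicate 1 or P8 replicate 2 (adjusted p between 0.0612 and 0.103), with edgeR (0.0629) or in a fit of all 21 libraries (0.0658). Pou4f2, known as Brn3b from retinal ganglion cells, stood at 90.7, 81.4 and 58.2 normalized CPM at P1 and at 38.7, 34.4 and 38.6 at P8. Its log2 fold change was -1.04 (SE 0.21, limma adjusted p = 0.0040), and it dropped under 2-fold without P1 replicate 1 (log2 fold change -0.895), P1 replicate 2 (-0.997) or P8 replicate 2 (-0.999). For both genes all P8 libraries lay below all P1 libraries.

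After P8 few genes were called at either step, among the members or over all genes. From P8 to P14, 0 of the 39 members were called with limma, 0 with edgeR and 0 with DESeq2, and 3 members had an unadjusted p under 0.05 with limma. Of all genes 0.251% rose and 0.285% fell in this comparison. From P14 to P30 only Onecut2 was called among the members with limma, 1 of 39 or 2.56% higher, where 0.0331% of all genes rose and 0.0265% fell. Onecut2 stood at 73.6, 74.4 and 61.6 normalized CPM at P14 and at 198, 147 and 190 at P30, with a log2 fold change of 1.31 (SE 0.21, limma adjusted p = 0.0170). It was lost without P14 replicate 1, P14 replicate 2, P30 replicate 1 or P30 replicate 3, with adjusted p between 0.0837 and 0.162, while the log2 fold change stayed between 1.24 and 1.39. Its level in SGNs was lowest at P8, at 54.7, 47.5 and 52.7 normalized CPM, below every SGN library of the other ages.

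Between the ends of the series, E15.5 and P30, 3 of the 39 members rose and 11 fell, or 7.69% and 28.2%, where 18.4% and 16.2% of all genes rose and fell. The median log2 fold change was -0.59 over the members and -0.01 over all genes. The members that fell were Isl1 and Isl2, Meis2 and Meis3, Pou2f1 and Pou2f2, and 5 of the 9 ZF members, namely Tshz1, Zeb2, Zfhx2, Zfhx3 and Zfhx4. Six2, Prox1 and Onecut1 rose.

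Zfhx2 at P30 stood at 70.5, 54.9 and 67.9 normalized CPM, and its log2 fold change from E15.5 was -2.64 (SE 0.24, limma adjusted p = 3.17e-07). Zfhx3 at P30 stood at 297, 117 and 87.7 normalized CPM, a log2 fold change of -2.63 (SE 0.35, limma adjusted p = 2.33e-05). All P30 libraries of both genes lay below all E15.5 libraries. Zfhx4 fell by 1.78 on the log2 scale over the same span (SE 0.27, limma adjusted p = 8.82e-05).

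Six2 stood at 60.8, 61.6 and 35.4 normalized CPM at E15.5 and at 156, 110 and 160 at P30. The groups did not overlap, with a log2 fold change of 1.45 (SE 0.32, limma adjusted p = 0.00181), though no single step between neighboring ages was called. With library size as the sole scaling the log2 fold change was 0.97, under 2-fold. Prox1 stood at 185, 217 and 151 normalized CPM at P30, above E15.5 with a log2 fold change of 1.18 (SE 0.30, limma adjusted p = 0.00579) and below its P1 level in every library. Its call was lost without E15.5 replicate 2 (log2 fold change 0.77) and with library size as the sole scaling (0.70, adjusted p = 0.0787).

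Isl1 stood at 229, 202 and 277 normalized CPM at E15.5 and at 109, 121 and 83.3 at P30, with a log2 fold change of -1.22 (SE 0.25, limma adjusted p = 0.00108). The P30 libraries were all lower, and the call was kept in each of the alternatives tried. Isl2 fell by 1.51 on the log2 scale (SE 0.35, limma adjusted p = 0.00303) and Zeb2 by 2.24 (SE 0.45, limma adjusted p = 0.000865).

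The low or uneven members gave less stable calls. Meis2, a TALE factor of limb and neural development, stood at 9.27, 65.8 and 99.5 normalized CPM at E15.5 and at 4.82, 0.219 and 3.61 at P30. Its log2 fold change was -4.61 (SE 1.78, limma adjusted p = 0.0473), and the call was lost when any P30 library, E15.5 replicate 2 or E15.5 replicate 3 was left out (adjusted p between 0.0721 and 0.112). The replicate block (0.114) and a fit with no filter on low counts (0.0846) also ended it. At P14 replicate 1 had 38.7 normalized CPM of Meis2 where the others had 0.855 and 6.90. That library had the most RNA of the HC, supporting epithelium, glial, myelin and mesenchyme markers at P14. Their part in its Meis2 level was not tested.

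Pou2f2, known as Oct2 from B cells, stood at 2.27, 4.11 and 3.19 normalized CPM at E15.5 and at 0.565, 1.21 and 0.108 at P30, a log2 fold change of -2.82 (SE 1.06, limma adjusted p = 0.0413). The call was lost without E15.5 replicate 2, E15.5 replicate 3 or any P30 library (adjusted p between 0.0535 and 0.158), with edgeR (0.0553) and with no filter on low counts (0.0707). Onecut1 was called higher at P30 (limma adjusted p = 0.0209), but its libraries overlapped, with 0, 7.94 and 0.0967 normalized CPM at E15.5 and 16.7, 6.15 and 19.6 at P30. The call was lost without E15.5 replicate 1 (adjusted p = 0.0802) or E15.5 replicate 3 (0.0991), and edgeR gave 0.229, DESeq2 0.235 and sample quality weights 0.0972. Tshz1 fell by 1.73 on the log2 scale, and by 1.25 without E15.5 replicate 3, where the adjusted p was 0.0518.

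**Figure D2:**
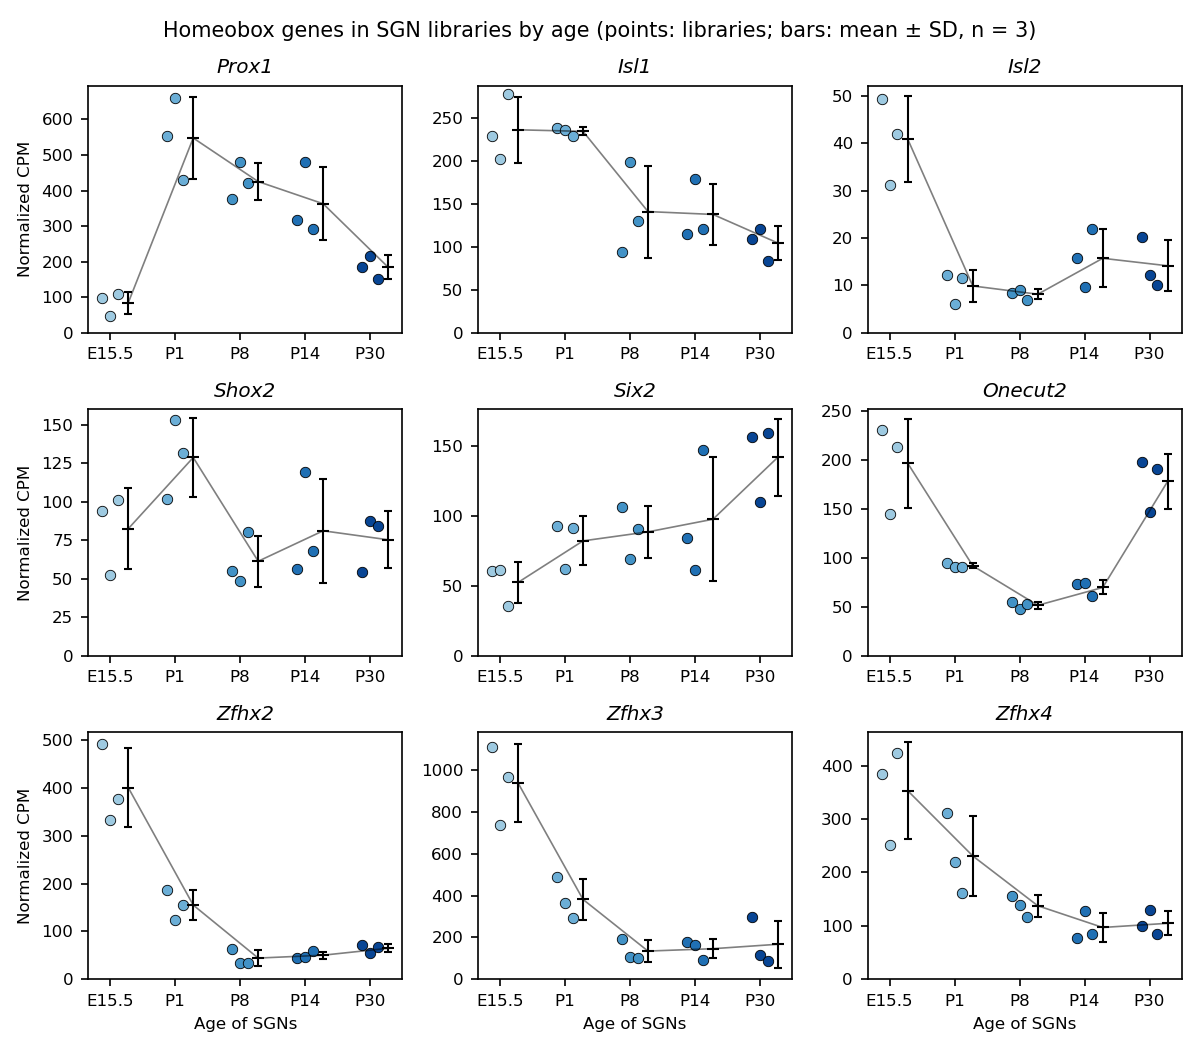
Normalized CPM of 9 homeobox genes in the 15 SGN libraries by age (points, libraries; bars, mean ± SD, n = 3; axes start at 0). Zfhx2, Zfhx3 and Isl2 are highest at E15.5, Prox1 is highest at P1, Six2 at P30, and Onecut2 is lowest at P8, where its libraries stand between 47.5 and 54.7.

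Irx1, Irx2, Cux2 and Pbx3 were called in no comparison of ages. Irx2 of the TALE class stood between 37.1 and 76.8 normalized CPM over the 15 SGN libraries, and Irx1 between 59.4 and 143. Cux2, a CUT factor known from upper layers of the cortex, stood between 123 and 226, and Pbx3, a TALE cofactor of HOX proteins, between 38.8 and 101. None of these 4 genes passed the 2-fold threshold at any step or between E15.5 and P30. For Cux2 the log2 fold change from E15.5 to P30 was 0.02 (SE 0.17), and for Irx2 it was -0.36 (SE 0.24). Smaller differences passed the test on p alone. Irx1 was lower at P30 than at E15.5 in every library, with a log2 fold change of -0.82 (SE 0.23, limma adjusted p = 0.00924). Pbx3 was higher at P1 than at E15.5 in every library, with a log2 fold change of 0.73 (SE 0.21, limma adjusted p = 0.0367).

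The second set of comparisons asks which homeobox genes differed between SGNs and the HCs and glial cells, which came from animals of other Cre lines. A member was called at more than a 4-fold difference with an adjusted p under 0.01, in a fit of all 21 libraries. Here 42 members passed the filter and 8 did not, Dlx5, Irx3, Irx6, Lhx2, Lmx1a, Msx1, Msx2 and Tlx3. The SGN side was the mean of the 5 ages, so its range over 15 libraries holds the changes with age.

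Against HCs, 12 of the 42 members were higher in SGNs and 10 were lower, or 28.6% and 23.8%, where 10.5% of all 17531 genes were higher and 16.2% lower. The median log2 difference was 0.83 over the members and 0.02 over all genes. SGNs were higher in Shox2, Irx1, all 3 Onecut genes, Isl2, Pou4f2, Cux2, Tshz2, Zfhx3, Pbx3 and Zeb2. HCs were higher in Lhx3, Gbx2, Meis1 and Meis2, Irx2 and Irx5, Barhl1, Emx2, Six5 and Pou3f2.

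Shox2 and Irx1 had the largest differences of all members. Shox2 stood between 48.7 and 153 normalized CPM in SGNs with a median of 84.1, and at 0.354, 0 and 0 in HCs, a log2 difference of 10.5 (SE 1.30, limma adjusted p = 7.43e-07). Irx1, an Iroquois factor of neural patterning, stood between 59.4 and 143 in SGNs with a median of 83.5, and at 0.886, 0.0856 and 0 in HCs, a log2 difference of 9.37 (SE 0.99, limma adjusted p = 8.27e-08). In both cases the highest HC library was far under the lowest SGN library.

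Irx2 had the opposite direction to Irx1, its neighbor on chromosome 13 (Irx1 at 71957921 to 71963723, Irx2 at 72628820 to 72634198). It stood at 243, 248 and 208 normalized CPM in HCs, above every SGN library, whose median was 47.1. The log2 difference of SGNs to HCs was -2.27 (SE 0.14, limma adjusted p = 1.05e-11).

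The Onecut genes were low in HCs or had no counts there. Onecut2 stood between 47.5 and 231 normalized CPM in SGNs with a median of 90.8 and at 0.945, 3.77 and 2.81 in HCs, a log2 difference of 5.49 (SE 0.63, limma adjusted p = 2.55e-07). Onecut1 and Onecut3 had 0 counts in all 3 HC libraries. Taken against 3 counts per HC library, the mean over SGN libraries was at least 46.6-fold higher for Onecut1 and 15.8-fold for Onecut3. Single SGN libraries ranged from 0 to 19.6 normalized CPM for Onecut1 and from 0 to 8.12 for Onecut3. Both genes thus overlapped HCs at the low end. Onecut1 shares 2171 of its 4113 exonic bases with Gm20649 on the same strand, where reads cannot be told apart even with strand.

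Isl2 stood between 5.98 and 49.3 normalized CPM in SGNs with a median of 12.1, and at 1.24, 1.80 and 0.762 in HCs, a log2 difference of 3.58 (SE 0.60, limma adjusted p = 3.76e-05). Isl1 differed less, with 53.5, 47.2 and 46.5 in HCs and a log2 difference of 1.71 (SE 0.29), under 4-fold. Prox1, at 254, 228 and 224 in HCs, lay within the SGN range of 48.2 to 660, and its log2 difference was 0.14 (SE 0.22). Six2, at 151, 158 and 167 in HCs, had a log2 difference of -0.90 (SE 0.21) and was not called. Zeb2 was called, with a log2 difference of 2.29 (SE 0.55, limma adjusted p = 0.00154), but HC replicate 1 at 16.4 normalized CPM overlapped the SGN libraries, and the call was lost without HC replicate 2 (adjusted p = 0.0130) or HC replicate 3 (0.0169). With DESeq2 the log2 difference was 1.87, and with library size as the sole scaling it was 1.73, both under 4-fold.

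Of the members higher in HCs, Lhx3, a LIM factor known from pituitary, motor neurons and HCs, had the largest difference (chromosome 2, 26200212 to 26208289, minus strand). It stood at 62.1, 69.8 and 63.6 normalized CPM in HCs, and between 0 and 10.5 in SGNs with a median of 1.36. The log2 difference of SGNs to HCs was -5.89 (SE 0.37, limma adjusted p = 2.47e-11). Barhl1, a factor needed for HC upkeep, stood at 25.9, 21.9 and 23.5 in HCs, and between 0.0968 and 3.34 in SGNs with a median of 1.61, a log2 difference of -4.16 (SE 0.43, limma adjusted p = 6.63e-08). No SGN library reached an HC library for either gene.

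Meis2 stood at 131, 145 and 131 normalized CPM in HCs, and between 0 and 99.5 in SGNs with a median of 4.82, a log2 difference of -5.08 (SE 0.65, limma adjusted p = 1.06e-06). Meis1, its relative, stood at 29.4, 34.4 and 33.9 in HCs, and between 0.465 and 22.7 in SGNs with a median of 2.03, a log2 difference of -3.71 (SE 0.50, limma adjusted p = 2.21e-06). HC libraries lay above all SGN libraries for both genes. The supporting epithelium markers, between 807 and 897 TPM in HC libraries and no higher than 113 TPM in SGNs, moved the same way, and their part in these results was not tested. Meis1 shares 1029 exonic bases with Gm37818 on the same strand.

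Emx2, a factor that orients HC bundles, stood at 4.84, 11.4 and 6.66 normalized CPM in HCs and no higher than 2.74 in SGNs, with a log2 difference of -2.98. Irx5, Gbx2 and Pou3f2 were called lower in SGNs with libraries that overlapped. Irx5, at 4.84, 5.91 and 7.62 normalized CPM in HCs and up to 7.50 in SGNs, lost its call without any single HC library (adjusted p between 0.0106 and 0.0287), with the replicate block (0.0169), with edgeR (0.261) and with DESeq2 (0.243). Gbx2, at 3.84, 0.813 and 4.45 in HCs, lost its call without HC replicate 1 (adjusted p = 0.0134) or HC replicate 3 (0.0220), and with edgeR (0.0101).

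Against glial cells, 14 of the 42 members were higher in SGNs and 6 were lower, or 33.3% and 14.3%, where 14.3% and 10.4% of all genes were. The median log2 difference was 0.87 over the members and 0.22 over all genes. SGNs were higher in Shox2, Pou4f2, Onecut2, Onecut3, Isl1, Isl2, Irx1, Irx2, Cux2, Prox1, Tshz2, Six2, Six4 and Meis3. Glial cells were higher in Pou3f1, Pou3f2, Zeb2, Six5, Meis1 and Cux1. This comparison and the one with HCs share the SGN libraries.

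Shox2 stood at 5.67, 0.347 and 0 normalized CPM in glial cells, a log2 difference of 7.28 (SE 1.18, limma adjusted p = 3.48e-05). Pou4f2 stood between 32.0 and 90.7 in SGNs with a median of 42.6, and at 2.27, 0.695 and 0 in glial cells, a log2 difference of 6.72 (SE 0.82, limma adjusted p = 9.58e-07). The highest glial value of both came from replicate 1, the glial library with more RNA of the SGN markers, and its part in these levels was not tested. With sample quality weights the call on Shox2 was lost (adjusted p = 0.0163).

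Onecut2 stood at 4.95, 0.868 and 0.192 normalized CPM in glial cells, a log2 difference of 6.52 (SE 0.78, limma adjusted p = 7.64e-07). Isl2 stood at 0.206, 0.347 and 0.385, a log2 difference of 5.43 (SE 0.72, limma adjusted p = 2.93e-06). Isl1 stood at 17.9, 2.78 and 1.15, a log2 difference of 5.11 (SE 0.75, limma adjusted p = 1.03e-05). All SGN libraries lay above all glial libraries for these 3 genes. Prox1 at 65.2, 17.3 and 7.51 in glial cells overlapped the SGN range through glial replicate 1, with a log2 difference of 3.39 (SE 0.54, limma adjusted p = 2.83e-05). That library, with more RNA of the SGN markers, was the highest glial library for Onecut2, Isl1 and Prox1, and the lowest for Isl2. Its SGN RNA and these levels were not tested together. Onecut3 had 0 counts in every glial library, and its mean over SGN libraries was at least 9.58-fold higher. The lowest SGN library was also at 0. The call on Onecut3 was lost without any single glial library (adjusted p between 0.0187 and 0.0267) and with sample quality weights (0.169).

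Pou3f1, Pou3f2 and Zeb2, with the largest differences on the glial side, are known from the Schwann cell lineage. The mesenchyme genes were also higher in every glial library than in any SGN library. Their part in the levels on the glial side was not tested. Pou3f1, also called Oct6 and known from promyelinating Schwann cells (chromosome 4, 124656807 to 124660655, plus strand), stood at 116, 88.0 and 60.9 normalized CPM in glial cells. It did not exceed 0.809 in any SGN library, and its log2 difference of SGNs to glial cells was -9.16 (SE 0.64, limma adjusted p = 2.52e-10). Pou3f2, a close relative, stood at 91.3, 37.4 and 55.1 in glial cells and between 0.110 and 13.1 in SGNs with a median of 1.46, a log2 difference of -5.28 (SE 0.38, limma adjusted p = 3.62e-10). The glial libraries of both genes lay above every SGN library. Pou3f3, the remaining POU3 gene of the list, had a log2 difference of -2.02 (SE 0.97) and was not called.

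Zeb2 (chromosome 2, 44983632 to 45117395, minus strand) stood at 1476, 1519 and 1163 normalized CPM in glial cells, and between 12.6 and 123 in SGNs with a median of 39.1. The log2 difference was -5.19 (SE 0.18, limma adjusted p = 4.27e-15). Zeb1, its relative, stood between 52.5 and 150 in SGNs and at 159, 207 and 187 in glial cells, a log2 difference of -1.05 (SE 0.18) under the 4-fold threshold. Cux1 stood at 911, 884 and 1123 in glial cells, above an SGN range of 160 to 327, with a log2 difference of -2.03 (SE 0.10, limma adjusted p = 1.98e-12). The call on Cux1 was lost without glial replicate 3 and without the filter on low counts, with a log2 difference of -1.92 in both fits. Cux2 differed the other way, with 27.0, 11.5 and 6.83 in glial cells and a log2 difference of 3.55 (SE 0.40, limma adjusted p = 3.58e-07). Meis1 and Six5 were called lower in SGNs, with libraries that overlapped, and Meis1 lost its call without glial replicate 2 (adjusted p = 0.0412) and with sample quality weights (0.0109).

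**Figure D3:**
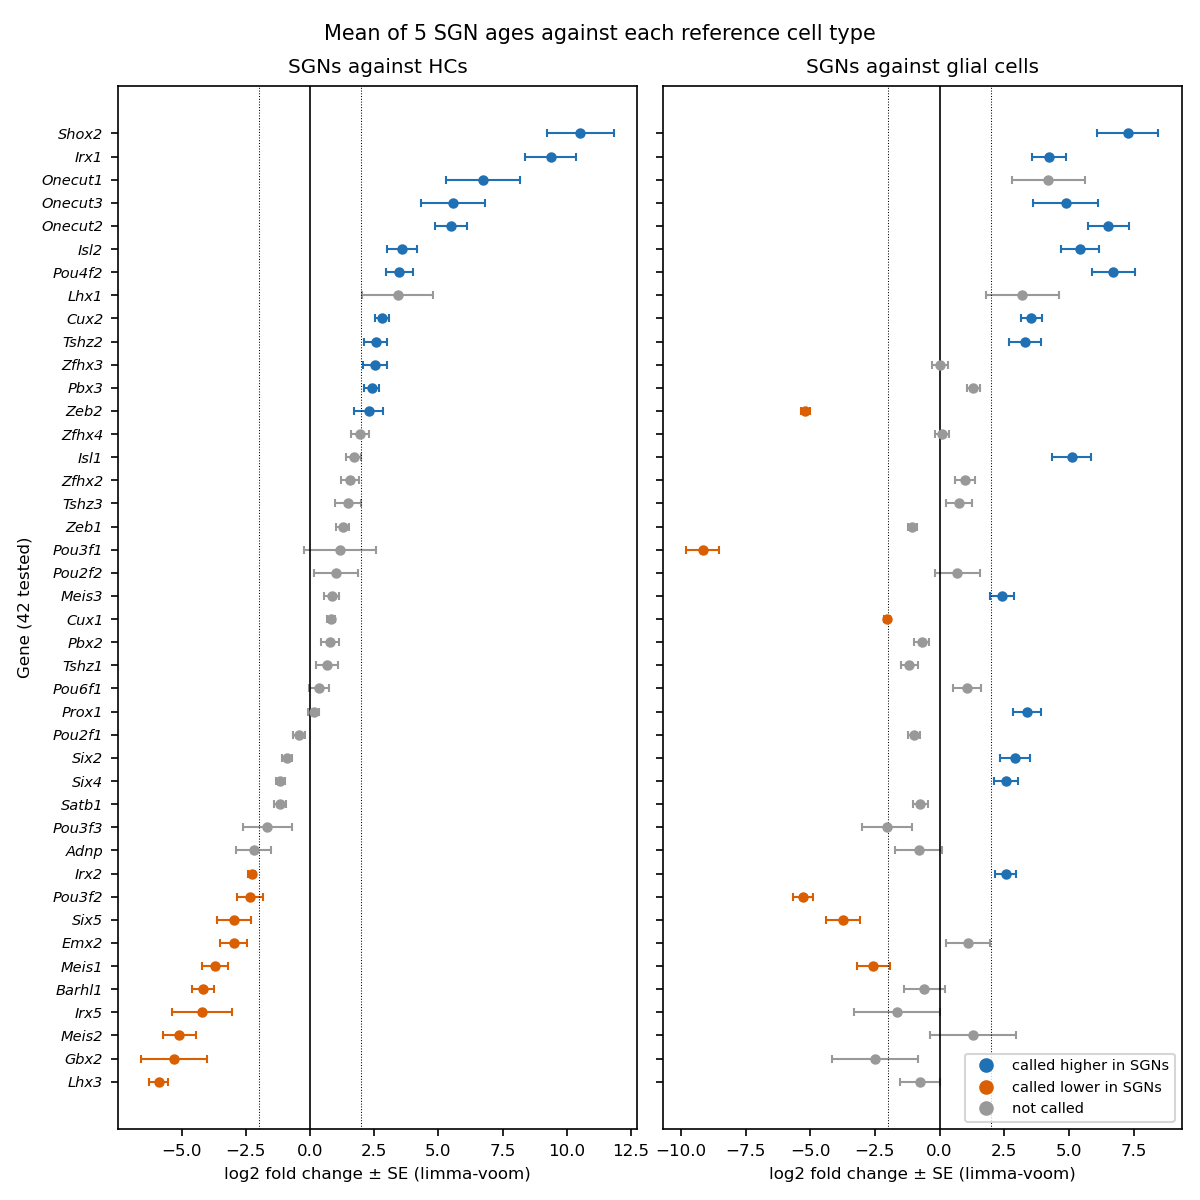
Log2 fold change ± SE (limma-voom) of the mean of 5 SGN ages against HCs (left) and glial cells (right) for the 42 homeobox genes tested. Blue points are called higher and orange points lower in SGNs at more than 4-fold (dotted lines) and an adjusted p under 0.01, and gray points are not called. Onecut1 and Onecut3 against HCs and Onecut3 against glial cells had 0 counts on the other side, so their points depend on the fit. Shox2 is at 10.5 on the left and Pou3f1 at -9.16 on the right.

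With the age matched at P8, 14 of the 42 members were higher in SGNs than in glial cells and 4 were lower, or 33.3% and 9.52%, where 13.4% and 7.53% of all genes were. The median log2 difference was 0.60 over the members and 0.22 over all genes. Relative to the mean of 5 ages, Onecut1 was called in addition, and Onecut3, Cux1 and Meis1 were not called. These contrasts share the glial libraries and the P8 libraries. Six4 and Meis3 lost their calls with DESeq2, library size as the sole scaling, sample quality weights or P8 SGN replicate 1 left out. Six4 was also lost with edgeR or without glial replicate 2, and Meis3 without glial replicate 3. Six5, whose libraries overlapped, was lost with edgeR, no filter and sample quality weights. It was also lost without P8 SGN replicate 2 or 3, or glial replicate 1 or 3. Sample quality weights also ended the calls on Isl2, Six2 and Tshz2.

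Shox2 at 55.5, 48.7 and 80.3 normalized CPM in P8 SGNs had a log2 difference of 6.85 (SE 1.21, limma adjusted p = 0.000124) to glial cells, lost with sample quality weights (adjusted p = 0.0229). Pou4f2 had one of 6.34 (SE 0.84, limma adjusted p = 6.11e-06) and Onecut2 one of 5.53 (SE 0.80, limma adjusted p = 1.64e-05). Onecut1 stood at 11.2, 3.95 and 7.93 in P8 SGNs and at 0.206, 0 and 0.192 in glial cells. Its log2 difference was 5.70 (SE 1.48, limma adjusted p = 0.00388), but the call was lost without P8 SGN replicate 1 (adjusted p = 0.0110), without any glial library (0.0143 to 0.0324), with edgeR (0.0252) and with sample quality weights (0.105).

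On the glial side Pou3f1 had a log2 difference of -8.91 (SE 1.25, limma adjusted p = 1.13e-05) and Zeb2 one of -4.89 (SE 0.28, limma adjusted p = 1.64e-10). Zeb2 stood at 57.5, 39.1 and 46.7 normalized CPM in P8 SGNs. Pou3f2 had a log2 difference of -2.68 (SE 0.43, limma adjusted p = 5.04e-05), smaller than against the mean of 5 ages, with P8 the age of its highest SGN level. In P8 SGN libraries Pou3f1 stood at 0, 0.531 and 0.809 normalized CPM. The summed Schwann cell myelin genes there lay between 825 and 1516 TPM, and their part in the Pou3f1 and Pou3f2 levels was not tested.

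HCs and glial cells differed in 17 of the 42 members, 10 higher in HCs and 7 higher in glial cells, or 23.8% and 16.7%, where 16.2% and 8.18% of all genes were. The median log2 difference was 0.09 over the members and 0.14 over all genes. HCs were higher in Meis2, Lhx3, Irx2, Emx2, Six2, Six4, Barhl1, Isl1, Prox1 and Pou4f2, and glial cells in Pou3f1, Zeb2, Irx1, Pou3f2, Cux1, Zfhx3 and Zeb1.

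Lhx3 stood at 1.70, 2.26 and 1.54 normalized CPM in glial cells, and its log2 difference of HCs to glial cells was 5.15 (SE 0.74, limma adjusted p = 1.23e-05). Irx2 stood at 6.59, 8.68 and 10.01 in glial cells, with a log2 difference of 4.83 (SE 0.41, limma adjusted p = 2.07e-08). For Irx2 the order was HCs, SGNs, glial cells, with no overlap between neighbors. Meis2 stood at 3.30, 1.30 and 0.770 in glial cells, with a log2 difference of 6.38 (SE 1.62, limma adjusted p = 0.00309) that was no longer called without any single glial library (adjusted p between 0.0168 and 0.0188) or with sample quality weights (0.0766). Emx2 stood at 1.34, 1.04 and 0 in glial cells, with a log2 difference of 4.09 (SE 0.90, limma adjusted p = 9.58e-04) that was lost without glial replicate 3 (adjusted p = 0.0118), with edgeR (0.0153) and with sample quality weights (0.0329).

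Pou3f1 stood at 0.827, 0 and 0 normalized CPM in HCs, and its log2 difference of HCs to glial cells was -10.3 (SE 1.34, limma adjusted p = 4.02e-06). Zeb2 stood at 16.4, 6.21 and 5.53 in HCs, a log2 difference of -7.48 (SE 0.55, limma adjusted p = 2.50e-09). Pou3f2 stood at 7.44, 10.4 and 6.45 in HCs, a log2 difference of -2.94 (SE 0.48, limma adjusted p = 5.90e-05). No HC library overlapped a glial library for these genes. Irx1 stood at 3.76, 1.39 and 16.0 in glial cells, a log2 difference of -5.14 (SE 1.19, limma adjusted p = 0.00151) that was lost without HC replicate 3 (adjusted p = 0.0206) or glial replicate 3 (0.0114). The calls on Isl1 (limma adjusted p = 0.00156) and Pou4f2 (0.00894) as higher in HCs also turned on single libraries. Isl1 was lost without glial replicate 2 (0.0115) or glial replicate 3 (0.0111) and with sample quality weights (0.0451). Pou4f2 was lost without any HC library, glial replicate 2 or glial replicate 3 (0.0128 to 0.119), with no filter on low counts (0.0139) and with sample quality weights (0.0921).

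**Figure D4:**
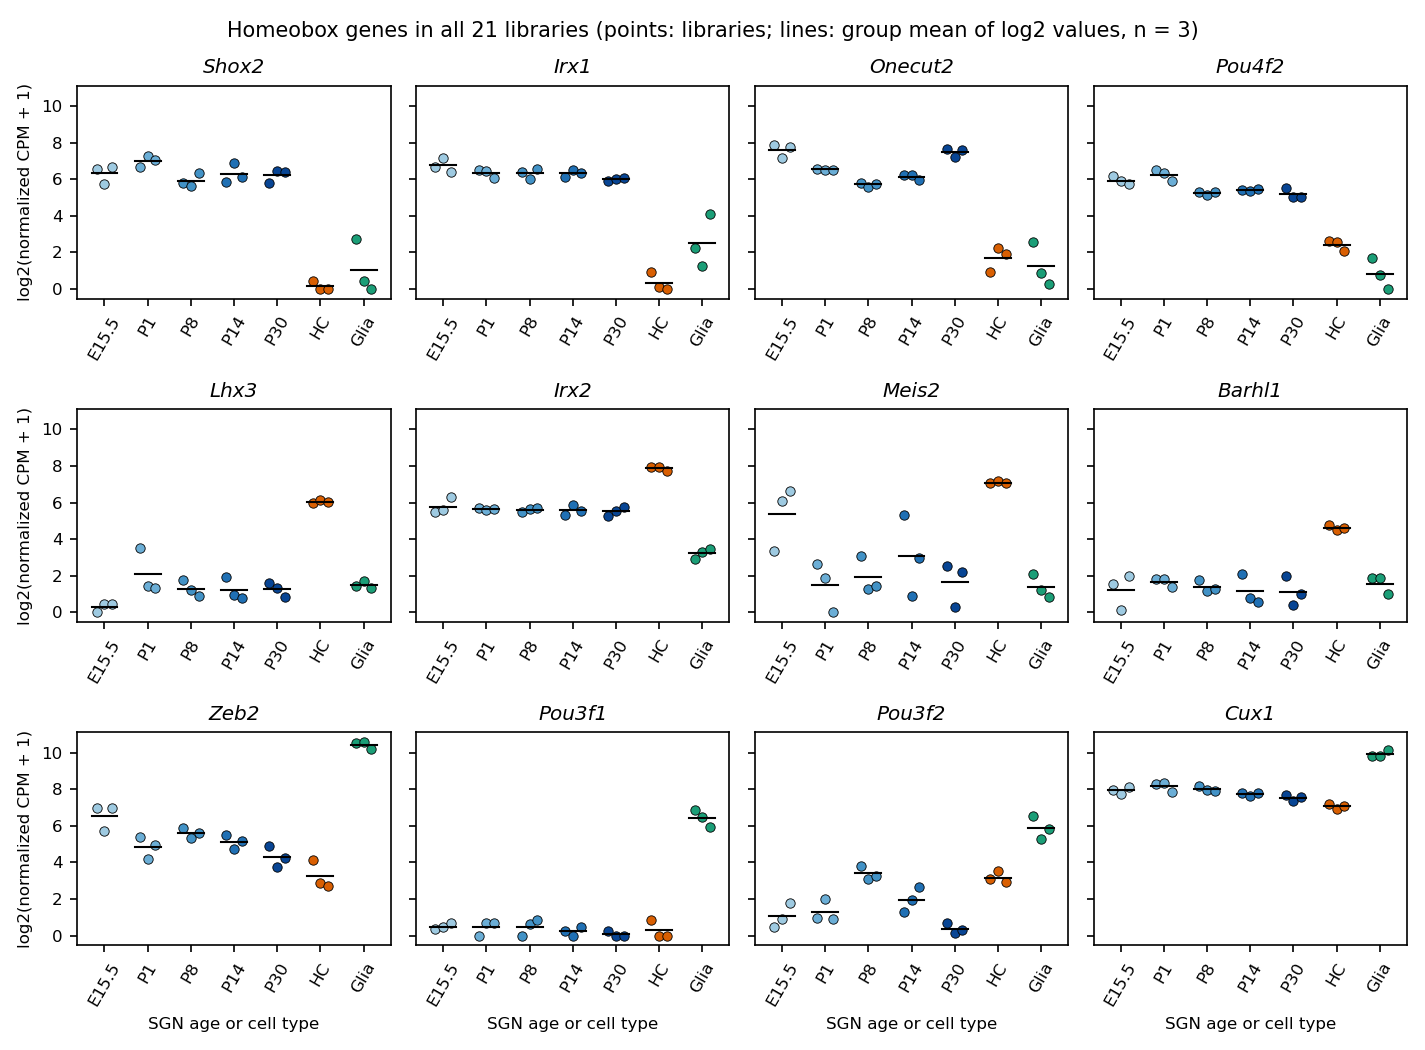
Log2 of normalized CPM plus 1 of 12 homeobox genes in all 21 libraries (points, libraries; lines, group means of the log2 values, n = 3). The top row shows genes higher in SGNs, the middle row genes highest in HCs and the bottom row genes highest in glial cells. Meis2 at E15.5 and P14 spreads widely within a group, between 9.27 and 99.5 normalized CPM at E15.5.

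Of the members not named with values above, Lhx1, a factor of kidney and Purkinje cells, ranged from 0 to 14.7 normalized CPM over SGN libraries and was called in no comparison. Satb1, a chromatin organizer known from T cells, ranged from 29.4 to 114 in SGNs and stood at 120, 116 and 123 in HCs, with a log2 difference to HCs of -1.16 (SE 0.24). The HOX cofactor Pbx2, the POU factors Pou3f3 and Pou6f1, the ZF factors Tshz3 and Adnp, and Satb1 and Lhx1 were the 7 members tested in both fits and called in none of the 9 comparisons. Adnp shares 4393 of its 5350 exonic bases with Gm20716 on the same strand. Reads in these bases cannot be told apart even with strand, which limits what the Adnp counts show. Pou2f1, which fell by 1.23 on the log2 scale from E15.5 to P30, shares 3007 exonic bases with Cd247 on the opposite strand. Tlx3, a factor of excitatory sensory neurons, stayed at or under 2.59 normalized CPM in SGNs and had 0 counts in every HC and glial library.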

How the data were processed

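Per the labels and the paper's methods, the authors mapped reads to mm10 with STAR 2.4.0i, counted them with featureCounts and deposited 1 table of raw counts with a length for each gene. The strand and read-pair settings are not given in the sources used here. Counts from 1 to 20 were even numbers at a median rate of 67.9% over the libraries, so a count may be a single read of a pair. Reads were amplified without molecular identifiers, and floors cover counting error only.

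Groups came from the labels. Every member was analysed, and the members and gene lists were chosen with earlier results of these data known. Counts were scaled with TMM (edgeR 4.0.16) and tested two-sided with voom, lmFit and eBayes (limma 3.58.1, R 4.3.3), with Benjamini-Hochberg adjustment within each comparison over the genes that exceeded 1 CPM in each library of some group. The age fit held 15 libraries and 15113 genes, and the cell type fit 21 libraries and 17531 genes. The code was tested on simulated data. TPM used the deposited lengths. Values of each library are given for the 4 largest rises and falls per comparison whose groups did not overlap, and for the 3 members highest in TPM per cell type. Some further members were named after their values were seen. Alternatives were edgeR's quasi-likelihood test, DESeq2 1.42.0, library size as the sole scaling, no filter, sample quality weights, a replicate block, all libraries in one fit and leaving out each library. Replicate numbers were taken to pair libraries where every pair's deviations from the group means correlated over 0.1 across genes. This held only between P14 and P30 (0.41, 0.27 and 0.14), where the replicate block changed no call on a member. Positions came from GENCODE on GRCm38, and promoters from RefSeq on GRCm38.p6, where Irx1, Irx5, Irx6, Pbx3, Onecut2, Onecut3, Pou3f1, Tshz1, Zeb1, Zfhx4 and Dlx5 had no window. Protein sequences were not analysed here. Tables were handled with pandas 2.3.3 and numpy 2.4.6 under Python 3.11.15, and plots drawn with matplotlib 3.10.9.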

Additional observations from a re-analysis of the deposited data

How the results depend on the processing

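No called result changed direction under any alternative. Counts of members called are given below without the share of all genes called under the same setting. They describe only how stable the member calls were. From P1 to P8 the 5 members called became 3 with edgeR and 8 with library size as the sole scaling. From P14 to P30 the 1 member called became 2 with DESeq2 and 2 with sample quality weights. Against glial cells sample quality weights left 13 of 20 called for the mean of 5 SGN ages and 11 of 18 for P8 SGNs. With library size as the sole scaling, the members that rose and fell from E15.5 to P30 were 1 and 16 in place of 3 and 11, and those higher and lower in P8 SGNs than in glial cells were 12 and 6 in place of 14 and 4. That scaling moved the median of all genes by -0.48 log2 units from E15.5 to P30, by -0.55 for SGNs against HCs and by 0.49 for HCs against glial cells, and 0 called members changed sign. Among members not called, up to 5 per comparison changed sign with that scaling or with DESeq2. Leaving out each library in turn gave between 7 and 9 calls from E15.5 to P1, 2 and 5 from P1 to P8, 0 and 0 from P8 to P14, 0 and 1 from P14 to P30, 11 and 15 from E15.5 to P30, 20 and 23 against HCs, 18 and 21 against glial cells, 15 and 18 for P8 SGNs against glial cells and 12 and 18 for HCs against glial cells. The P1 to P8 count fell to 2 without P1 replicate 1, and to 3 without P1 replicate 2 or without P8 replicate 2. With the replicate block the counts in the same order of comparisons were 9, 5, 0, 1, 13, 21, 20, 18 and 17, and it ended the calls on Meis2 from E15.5 to P30 and on Irx5 against HCs. Outside P14 to P30, replicate numbers were not taken to pair libraries. Even so, the correlations were 0.39, 0.072 and 0.16 from P1 to P8 and 0.37, 0.16 and 0.054 from P8 to P14. Whether same-numbered libraries share an origin was not tested. For the genes named by rule, 292 of 312 values under an alternative and 446 of 486 with a library left out kept their call, and the rest became weaker. Of 144 group levels, 62 moved by more than 1 SD between TPM and normalized CPM, and 35 of the 50 members kept the same highest group. The cause of these changes was not tested. With 3 libraries in a group, members near the floor of 3 counts could be compared only coarsely.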

Other observations

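Besides the 50 members, 161 other homeobox genes have a row in the count table, most of them too low to test. Of these, 25 were tested across SGN ages and 31 between cell types. From E15.5 to P1, 2 rose and 2 fell, where 5.08% and 3.18% of all genes did. From E15.5 to P30, 4 rose and 2 fell, where 18.4% and 16.2% of all genes did. Against HCs 3 were higher and 7 lower in SGNs, where 10.5% and 16.2% of all genes were, and against glial cells 5 were higher and 4 lower, where 14.3% and 10.4% were. Pou4f3, Hopx and Pou4f1 were among those of highest TPM.

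Pou4f1, known as Brn3a from sensory neurons, stood at 301, 153 and 182 normalized CPM at E15.5 and at 64.7, 51.5 and 52.4 at P1, with no overlap and a log2 fold change of -1.82 (SE 0.25, limma adjusted p = 3.61e-04). It did not exceed 3.37 in HCs or 7.93 in glial cells. Pou4f2, a member of the same family, had a log2 fold change of 0.36 (SE 0.21) over that step and was not called.

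Pou4f3, the POU factor required for HC survival and 1 of the 4 HC markers used above, stood at 311, 352 and 328 normalized CPM in HCs, and no higher than 50.5 in SGNs. Hopx, an atypical homeodomain protein that does not bind DNA, was at or under 0.20 normalized CPM in every E15.5 library and at 9.87, 9.55 and 13.9 at P30. Its log2 fold change between these ages was 7.68 (SE 1.49, limma adjusted p = 6.81e-04).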
